A study of Mus musculus with 9 samples.

Results

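A set of 80 genes peaked at day 2 in 6620c1, a cell line from a mouse pancreatic tumor, when the cells were cultured for 14 days in medium that deprives them of nutrients and oxygen. The set ran from Gapdh, the glycolytic enzyme glyceraldehyde-3-phosphate dehydrogenase, at 17709.5 TPM at day 2, down to genes at 5.02 TPM. TPM (transcript abundance scaled to a fixed total) is a gene's length-corrected share of a sample's RNA. A gene was taken from the table of 24493 rows when its day 2 mean was at least 5 TPM, when this mean plus 1 was at least 1.8 times that of day 0 and of day 14, and when its lowest day 2 value was above all 6 other values. Rows were left out by the start or end of their names, as used for microRNAs, small nucleolar RNAs, ribosomal proteins, histones and unnamed transcripts. A prefix such as Rp can take in other genes too. With 11 named hypoxia or stress genes also left out, this removed 8 rows of 88 that otherwise met the rule. The genes were thus chosen by their TPM at days 0, 2 and 14, so day 2 against the other days is given as a description with no test. Over all genes tested, the lowest day 2 value was above the 6 others in 4.62%. The rule did not compare day 14 with day 0, so this contrast was tested, although it shares values with the rule. All genes tested are not a matched background for it, since members had to rise from day 0 to day 2.

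The study sampled the line at day 0 and after 2 and 14 days, with 3 samples at each time. For all 9 samples, those of day 0 too, the labels name a DMEM with 20% of the standard amino acids, fetal calf serum at 0.5% and 2.5 mM glucose, and they give no oxygen level. No time-matched sample without deprivation was analysed here, so the effects of the medium and of days in culture cannot be told apart. The labels do not say that the samples of a day came from separate cultures, so p-values rest on a spread between samples that may be technical. A single line was used, and its column names carry the prefix WT, which the labels do not explain.

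Cells short of oxygen stabilise the hypoxia-inducible factors (HIF), transcription factors that bind a short core sequence and switch on glycolytic enzymes, glucose transport, vessel growth factors and regulators of mitochondria. Lack of amino acids, or stress in the endoplasmic reticulum, acts in part through another factor, ATF4. Both arms meet at Ddit4, an inhibitor of the growth kinase mTORC1. Pancreatic tumors are known for poor blood supply and for heavy use of glucose.

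TPM are relative within a sample, so a gene that rose and a loss of other RNA cannot be told apart, and the count of genes that met the rule depended on the scaling between samples. It was 184 after median-of-ratios scaling, 233 after quantile normalization, 122 without the 20 most abundant rows and 101 without microRNA and small nucleolar RNA rows. Of the 80 genes, 78 met the rule under all 4 of these scalings. Gapdh and Pgk1 dropped out under quantile normalization, and Gapdh was among the abundant rows removed. Leaving out 1 sample gave 71 to 103 genes, and 51 of the 80 met the rule whichever sample was left out. The threshold of 1.8-fold cut through a continuous range. Just inside it stood Tbkbp1 and Ostf1 at a smaller fold of 1.81 and Hyi at 1.81, and just outside stood Fam98c at 1.77, Mt1 at 1.77 and Zfp395 at 1.77. A threshold of 2-fold kept 53 genes, and 449 rows met the other 2 criteria before any fold was asked for.

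Across the series, 11569 to 12717 rows reached 1 TPM per sample, and log2 values of samples of the same day correlated at 0.947 to 0.979 over the 12693 genes tested. All 7 ductal epithelial markers passed the filter on low values, with a summed level of 10795 to 11448 TPM at day 0, 5483 to 7611 TPM at day 2 and 6807 to 8578 TPM at day 14. The 4 keratins made up most of this sum and had their highest mean at day 0, whereas Cdh1, Epcam and Sox9 were higher at day 14 than at day 0, with means of 240 and 399 TPM, 2.23 and 14.1 TPM, and 8.48 and 26.3 TPM. Of the marker lists for acinar cells and fibroblasts, 1 gene each passed, and for endothelial and T cells none of 5 and none of 6 did. On the macrophage list 4 of 9 genes passed, with Cd14 highest, and the list summed to 81.0 to 93.5 TPM at day 0, 53.2 to 89.1 TPM at day 2 and 89.2 to 151 TPM at day 14. One microRNA row, Mir6236, took 13.2 to 22.5% of all TPM at day 2 and 8.27 to 13.7% in the other samples. All 80 genes also met the rule once microRNA and small nucleolar RNA rows were taken out.

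Promoter sequence was examined because some of these genes are known as HIF targets. RefSeq windows of 300 bases (build GRCm38.p6, 250 bases before to 50 after a start) were found for 61 of the 80 genes, 76 windows in all. The HIF core was searched in 2 forms on both strands, ACGTG and GCGTG. A match is a description of letters and not a binding site. The 5 stretches below, each 120 bases, come from members on the list of HIF targets used further on. A stretch was taken only where a match lay upstream of the start, so each holds a match by this choice. Where a gene had several windows, the one showing most matches was used. The stretches are not a sample of the 80 genes. They are written 5′ to 3′ on the gene's strand, with every match on either strand in capitals (CACGT and CACGC are the reverse complements).
Pgk1: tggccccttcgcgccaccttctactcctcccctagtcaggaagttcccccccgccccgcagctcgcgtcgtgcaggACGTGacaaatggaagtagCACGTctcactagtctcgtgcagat
Fam162a: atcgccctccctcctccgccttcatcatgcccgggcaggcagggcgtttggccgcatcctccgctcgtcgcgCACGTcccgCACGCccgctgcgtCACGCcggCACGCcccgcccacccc
Cited2: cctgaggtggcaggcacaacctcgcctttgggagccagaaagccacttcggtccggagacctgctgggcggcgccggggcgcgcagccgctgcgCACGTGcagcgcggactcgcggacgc
Selenbp1: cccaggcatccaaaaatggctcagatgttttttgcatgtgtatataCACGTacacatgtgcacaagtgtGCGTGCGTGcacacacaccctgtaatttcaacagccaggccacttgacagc
Ddit4: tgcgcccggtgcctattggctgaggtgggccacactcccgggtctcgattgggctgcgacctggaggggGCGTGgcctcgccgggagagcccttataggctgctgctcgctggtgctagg

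The Pgk1 stretch, at chrX:106186874-106186993 on the plus strand, covers positions -226 to -107 from the RefSeq start and holds 2 matches of the A form. Fam162a (chr16:36071595-36071714, minus strand, -153 to -34) shows 4 matches, and Cited2 (chr10:17722981-17723100, plus strand, -247 to -128) shows the palindrome CACGTG, which holds the A form on both strands and is also an E-box. Selenbp1 (chr3:94932833-94932952, plus strand, -250 to -131) holds 3 matches within a run of alternating bases, and Ddit4 (chr10:59951835-59951954, minus strand, -184 to -65) shows 1 match of the G form. The windows hold further matches that the stretches do not show in full. These are an A form starting at -187 in Ddit4 and G forms at -213 and -19 in Fam162a.

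The A form was in 32 of the 76 windows of the set, 42.1%, against 25.5% of the 12346 windows of genes tested, 25.7% of windows of genes called higher at day 2 than at day 0, and 19.6% of all 32851 windows in the table. The G form was in 60.5%, against 50.7% of windows of genes tested and 32.4% of all windows. The E-box CACGTG was in 5.26% of the set's windows and 9.995% of those of genes tested. The other 3 motifs were rare in both groups. TGATGCA, the C/EBP-ATF core through which ATF4 acts, was in 2.63% against 1.99%, TGACTCA of AP-1 in 5.26% against 3.94%, and GTAAACA of FOXO in 2.63% against 2.55%. The windows of the set had a median GC content of 63.3% and 20 CpG, near the 60.7% and 20 CpG of genes tested, whereas all windows in the table had a median GC content of 52.7%. Windows of the same gene share sequence and are not independent.

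**Figure D1:**
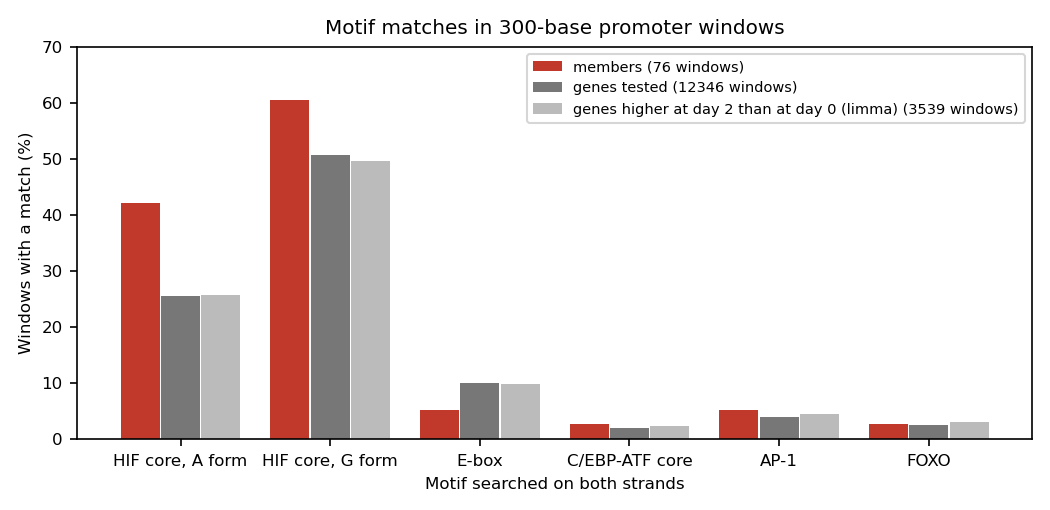
Share of 300-base promoter windows (%) with at least 1 match to each motif on either strand, for the 76 windows of the day 2 peak genes, the 12346 windows of genes tested and the windows of genes called higher at day 2 than at day 0. The bars of the 2 HIF core forms reach 42.1% and 60.5% in the day 2 peak genes, against 25.5% and 50.7% in genes tested, and those of the other motifs stay below 10%.

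The 80 genes together made up 1.06 to 1.24% of all TPM at day 0, 3.02 to 3.32% at day 2 and 1.38 to 1.51% at day 14. Gapdh alone gave more than the others combined. Without it the shares were 0.274 to 0.295% at day 0, 1.32 to 1.41% at day 2 and 0.623 to 0.680% at day 14, so the remaining 79 genes as a sum did not return to their day 0 level. Day 2 means were at least 100 TPM in 19 genes, from 10 to 100 TPM in 39 and below 10 TPM in 22. The median fold, on means plus 1, was 4.15 over day 0 and 2.18 over day 14. The fold over day 0 was the larger in 73 genes. In the other 7, among them Thbd, Prl2c4, Gapdh, AI413582, Lamb1 and Phospho1, the fold over day 14 was the larger. As a share of the log2 rise from day 0 to day 2, a median of 42.6% was left at day 14, from -91.0% in Thbd to 76.4% in Ddit4.

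**Figure D2:**
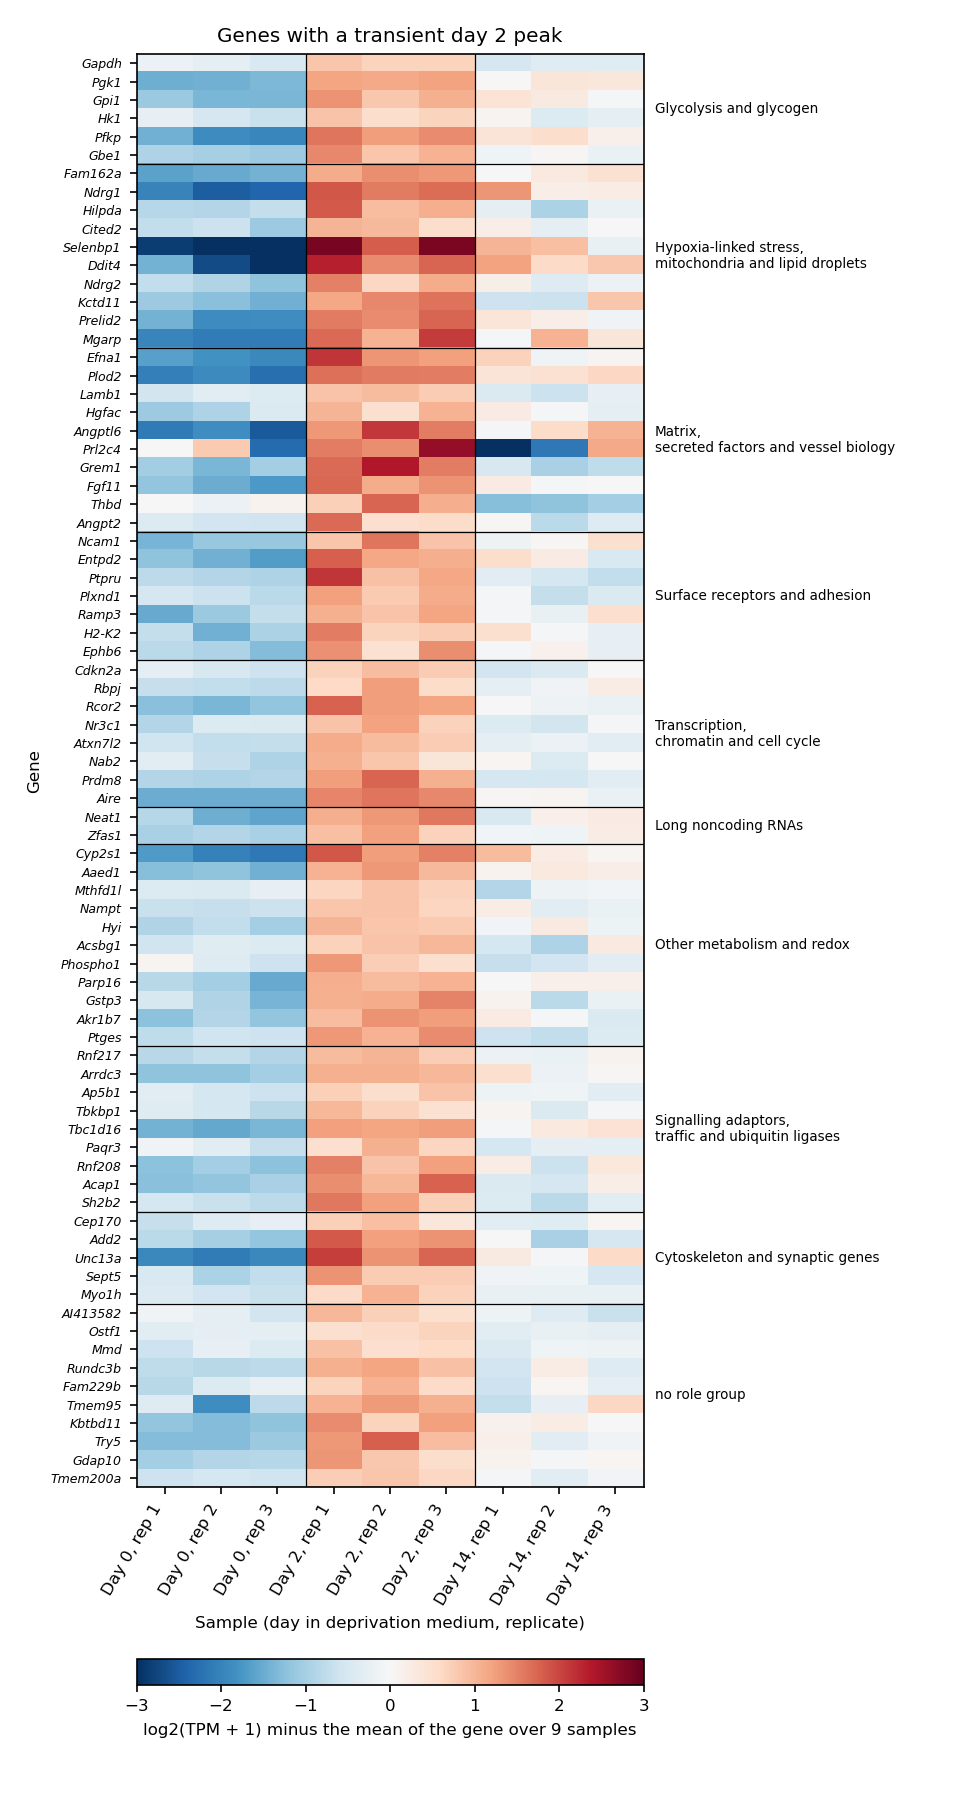
Heatmap of 78 of the 80 genes (rows, by role) in the 9 samples (columns, by day and replicate). Colour gives log2(TPM + 1) minus the gene's mean over the 9 samples, with values beyond 3 in either direction drawn at the end of the scale. Day 2 is red in every row by the rule, and the day 14 mean lies between those of day 0 and day 2 in 72 rows.

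Enzymes of glycolysis or glycogen metabolism made up 6 members, among them the 2 most abundant genes of the set. Gapdh stood at 9451, 8771 and 7844 TPM at day 0, at 19120.2, 16970.3 and 17038 TPM at day 2, and at 7622, 8419.6 and 8341 TPM at day 14. Day 14 overlapped day 0. Pgk1, phosphoglycerate kinase, which makes ATP in the step after Gapdh, stood at 607, 626 and 661 TPM at day 0, at 3828, 3740.4 and 3916 TPM at day 2, and at 1704, 2167 and 2139 TPM at day 14. The 3 days were fully separate for Pgk1, and its day 2 values lay close together.

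Gpi1, which turns glucose-6-phosphate into fructose-6-phosphate, went from 239, 199.9 and 201 TPM at day 0 to 1339.6, 908 and 1101 TPM at day 2 and to 696, 633 and 505 TPM at day 14. Pfkp, the platelet form of phosphofructokinase, which commits sugar to glycolysis, went from 15.4, 11.1 and 10.5 TPM to 136, 106 and 118 TPM and then to 57.5, 63.7 and 48.7 TPM. Both kept apart at all times. Gbe1, the glycogen branching enzyme, had means of 4.66, 23.9 and 9.60 TPM at days 0, 2 and 14. Hk1, the housekeeping hexokinase that starts glycolysis, had means of 92.6, 208 and 112 TPM.

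Day 14 was tested against day 0 with limma, a linear model fitted on log2(TPM + 1) across all 12693 genes tested, with a call at a Benjamini-Hochberg adjusted p under 0.05. It placed 4 of these 6 genes above their day 0 level, against a background of 36.2% of all genes tested that were higher and 18.8% that were lower. The rises came to a log2 fold change of 2.12 ± 0.17 (SE, adjusted p = 2.86e-05) for Pfkp, 1.66 ± 0.10 (1.2e-05) for Pgk1, 1.5 ± 0.17 (0.000127) for Gpi1 and 0.90 ± 0.16 (0.00145) for Gbe1. Hk1 differed by 0.26 ± 0.16 (adjusted p = 0.189). The Gapdh difference was -0.09 ± 0.10 (adjusted p = 0.441), and it became -0.39 (0.0196) after median-of-ratios scaling and -0.53 (0.000465) after quantile normalization, so whether it was called lower than day 0 depended on the scaling. The Gbe1 call was lost after quantile normalization (adjusted p = 0.0551). Gapdh also has many processed pseudogenes, whose reads the quantification could share with it.

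A group of 10 genes held hypoxia-linked regulators of stress, mitochondria and lipid storage, and limma called 9 of them higher at day 14 than at day 0. Selenbp1, a selenium-binding protein that oxidises methanethiol, had the largest fold over day 0 in the set, 49.4 on means plus 1. Its values were 4.02, 3.09 and 2.90 TPM at day 0, then 259.8, 125 and 255 TPM at day 2, and 72.6, 66.1 and 30.2 TPM at day 14. Ddit4 stood at 15.8, 6 and 1.84 TPM, then at 226, 120.3 and 151 TPM, then at 104, 65.8 and 78.0 TPM. Ddit4 was already uneven at day 0, and all of its day 14 values were above the day 0 range. Ndrg1, a stress-response protein long used as a hypoxia marker, stood at 36.9, 26.6 and 28.2 TPM, then at 557, 451 and 482 TPM, then at 379, 175 and 176 TPM, so replicate 1 stood apart at day 14. Against day 0, the day 14 log2 fold changes were 3.64 ± 0.36 for Selenbp1 (adjusted p = 7.86e-05), 3.56 ± 0.54 for Ddit4 (0.000646) and 2.87 ± 0.28 for Ndrg1 (6.87e-05).

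Fam162a, a mitochondrial protein linked to hypoxia-induced cell death, was the most abundant of this group. It stood at 170.0, 181 and 194 TPM at day 0, at 1118, 1359.9 and 1291 TPM at day 2, and at 519, 636 and 708 TPM at day 14, with no overlap between days. Mgarp, a mitochondrial protein induced by low oxygen, was listed at 0.0788, 0 and 0 TPM at day 0, then at 12.8, 7.84 and 17.2 TPM, then at 3.09, 7.77 and 4.45 TPM. Prelid2, of the family of phospholipid carriers between mitochondrial membranes, had means of 3.93, 46.8 and 17.1 TPM. All 3 were higher at day 14 than at day 0, with log2 fold changes of 1.76, 2.50 and 1.88 and adjusted p of 2.32e-05, 0.000229 and 5.43e-05 in limma.

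Hilpda, which blocks the lipase that empties lipid droplets, was the exception. Its values were 73.1, 71.8 and 81.5 TPM at day 0, then 484, 256 and 284 TPM at day 2, and 111, 68.4 and 116 TPM at day 14, where replicate 2 lay below all day 0 samples. The day 14 difference from day 0 was 0.34 ± 0.26 (limma adjusted p = 0.285). Cited2, which competes with HIF for the coactivator p300 and so limits it, stood at 89.3, 95.2 and 70.2 TPM, then at 306, 298 and 219 TPM, then at 174, 124 and 152 TPM. It was higher at day 14 by 0.81 ± 0.18 (limma adjusted p = 0.00451). Ndrg2, a relative of Ndrg1, and Kctd11, an adaptor of a ubiquitin ligase that restrains Hedgehog signalling, had day 14 log2 fold changes of 0.82 (limma adjusted p = 0.0155) and 1.12 (0.0232). Both calls were lost after median-of-ratios scaling and after quantile normalization, and each was lost with 1 sample left out, Ndrg2 without replicate 3 of day 0 or replicate 1 of day 14, and Kctd11 without replicate 2 or 3 of day 0. Kctd11 was at 35.9 TPM in replicate 3 of day 14 and at 12.5 and 12.4 TPM in the others. It lies between 2 further members, Tmem95 and Acap1, at gaps of 93 and 581 bases. Whether the quantification used strand is not stated, and sharing of reads between these neighbours was not tested.

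**Figure D3:**
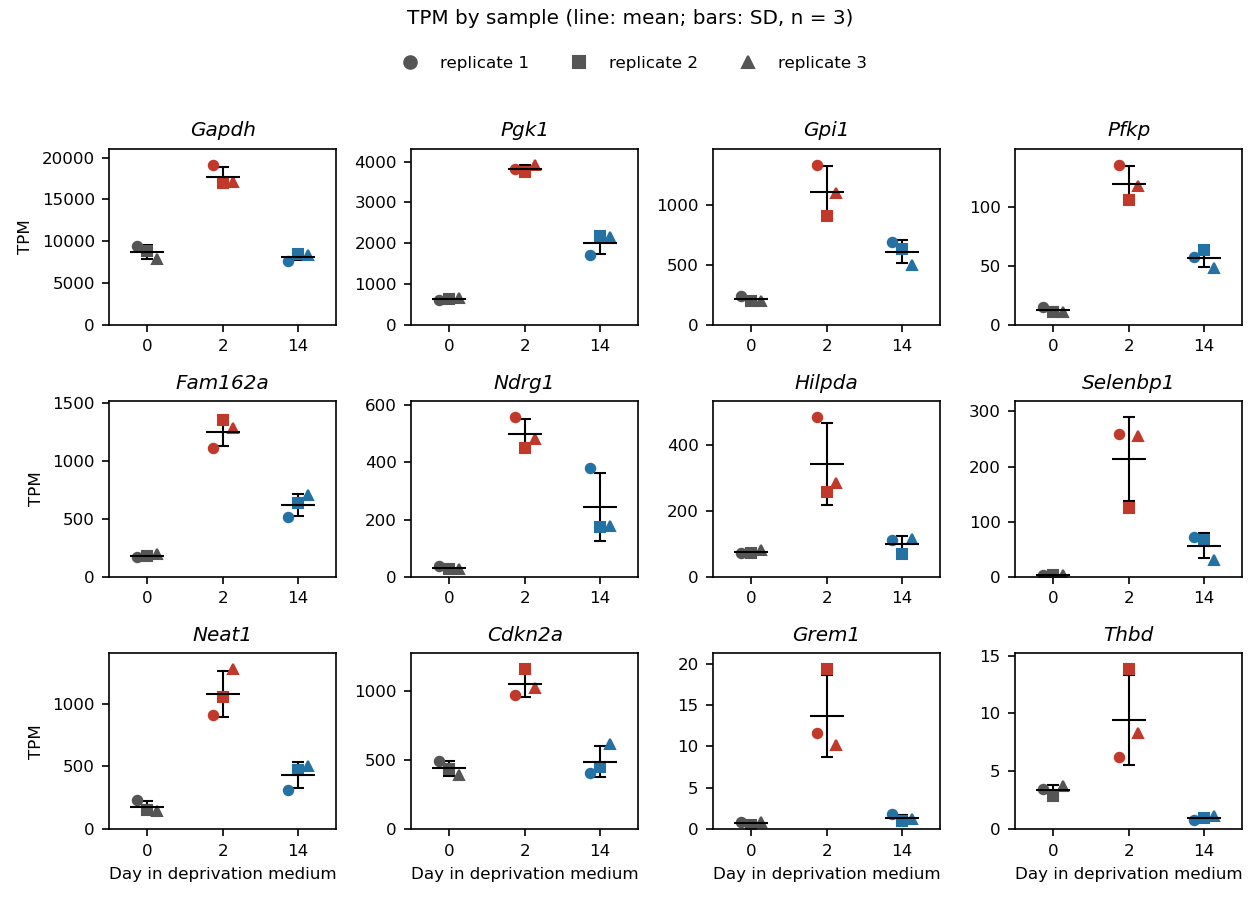
TPM of 12 members in each sample by day in deprivation medium, with the mean (line) and SD (bars, n = 3), replicates by symbol, and a separate linear axis from 0 for each gene. Pgk1, Gpi1, Pfkp, Fam162a, Ndrg1, Selenbp1 and Neat1 sit above day 0 in all 3 samples of day 14, Gapdh, Hilpda and Cdkn2a overlap day 0 there, and Thbd lies below it.

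The 11 genes of matrix, secreted factors and vessel biology split more widely, with 5 higher at day 14, 1 lower and 5 not called. Plod2, the lysyl hydroxylase that prepares collagen for stable cross-links, stood at 6.90, 7.67 and 5.78 TPM at day 0, at 101, 95.1 and 92.6 TPM at day 2, and at 41.5, 43.6 and 48.6 TPM at day 14. Its day 14 log2 fold change of 2.55 ± 0.12 had the smallest SE among the 10 members with a change above 2 (limma adjusted p = 3.71e-06). Angptl6, a secreted angiopoietin-like factor, went from 2.76, 3.44 and 1.86 TPM to 38.9, 69.9 and 46.0 TPM and then to 14.8, 22.8 and 32.6 TPM, and was 2.68 ± 0.30 above day 0 on the log2 scale (limma adjusted p = 0.000148). Efna1, a ligand of Eph receptors, went from 12.2, 10.6 and 9.67 TPM to 179, 101 and 94.9 TPM and then to 65.0, 36.4 and 42.3 TPM. Efna1 had a day 14 log2 fold change of 2.01 (limma adjusted p = 0.000334), Fgf11, an intracellular member of the fibroblast growth factor family, one of 1.54 (0.000277), and Hgfac, the protease that activates hepatocyte growth factor, one of 0.78 (0.0148). The Hgfac call was lost after median-of-ratios scaling and quantile normalization, and without replicate 1 or 2 of day 0 or replicate 1 of day 14.

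The other members of this group were not called higher. Grem1, a secreted antagonist of bone morphogenetic proteins, had the largest fold over day 14 in the set, 6.29 on means plus 1. It stood at 0.870, 0.500 and 0.892 TPM at day 0, at 11.6, 19.3 and 10.1 TPM at day 2, and at 1.77, 0.955 and 1.27 TPM at day 14, just above the day 0 range. Thbd, thrombomodulin, a surface cofactor that limits clotting, stood at 3.47, 2.88 and 3.73 TPM, then at 6.26, 13.8 and 8.32 TPM, then at 0.827, 0.918 and 1.16 TPM. Thbd was the 1 member that fell below its day 0 level, by a log2 fold change of -1.15 ± 0.24 (limma adjusted p = 0.00323), with no overlap between the 2 days.

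Prl2c4, of the proliferin family, had the largest SE of the set, at 8.68, 15.7 and 0.971 TPM at day 0, then 27.2, 24.5 and 59.4 TPM at day 2, and 0.205, 1.19 and 20.3 TPM at day 14. Its near-identical family members can share reads, so its level is uncertain. Lamb1, a laminin chain of basement membranes, returned to day 0, with means of 37.1, 91.1 and 36.7 TPM, although it was called lower at day 14 after median-of-ratios scaling (log2 fold change -0.31, adjusted p = 0.031). Angpt2, the angiopoietin that loosens vessels, was at 9.78 TPM in replicate 1 of day 2 and at 3.65 and 3.87 TPM in the others. Grem1 and Angpt2 differed from day 0 at day 14 by 0.40 ± 0.24 and 0.14 ± 0.33, neither past the threshold (limma adjusted p = 0.177 and 0.728).

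Among 7 surface receptors and adhesion genes, 5 were higher at day 14 than at day 0. Ncam1, a neural cell adhesion molecule, stood at 8.10, 9.95 and 10.02 TPM at day 0, at 41.6, 72.2 and 42.8 TPM at day 2, and at 20.6, 23.8 and 32.8 TPM at day 14. Entpd2, a surface enzyme that breaks down extracellular ATP, stood at 5.92, 4.9 and 4 TPM, then at 54.4, 34.8 and 33.0 TPM, then at 22.3, 18.1 and 10.7 TPM. Both were fully separate between days, with day 14 log2 fold changes of 1.35 ± 0.24 and 1.56 ± 0.28 (limma adjusted p = 0.00131 and 0.00146). Ramp3, which pairs with the receptor for adrenomedullin, had means of 1.33, 9.15 and 4.32 TPM and a day 14 log2 fold change of 1.19 (limma adjusted p = 0.00298). Ephb6, an Eph receptor without kinase activity, and H2-K2, a class I histocompatibility gene annotated as a transcribed pseudogene, rose by 0.97 and 1.09 (limma adjusted p = 0.0122 and 0.0112). The calls of Ramp3, Ephb6 and H2-K2 were lost after quantile normalization.

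Ptpru and Plxnd1 returned further. Ptpru, a receptor tyrosine phosphatase of cell contacts, stood at 4.33, 4.03 and 3.86 TPM at day 0, at 39.9, 15.9 and 19.4 TPM at day 2, and at 6.32, 5.41 and 4.51 TPM at day 14. The day 14 values lay just above day 0, with a log2 difference of 0.33 ± 0.29 (limma adjusted p = 0.348). Plxnd1, a semaphorin receptor, had means of 3.74, 14.4 and 4.73 TPM and a difference of 0.25 ± 0.20 (limma adjusted p = 0.294).

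Members that act in transcription, chromatin or the cell cycle numbered 9, and 5 of them were higher at day 14 than at day 0. Cdkn2a, a row that joins the cell cycle inhibitor p16 and the p53 activator ARF, stood at 497, 433 and 393 TPM at day 0, at 976, 1160.4 and 1025 TPM at day 2, and at 405, 451 and 615 TPM at day 14. Its day 14 range overlapped day 0, with a log2 difference of 0.14 ± 0.16 (limma adjusted p = 0.49). Nr3c1, the glucocorticoid receptor, likewise overlapped day 0, with means of 14.7, 43.4 and 17.5 TPM and a difference of 0.24 ± 0.19 (limma adjusted p = 0.315). Rcor2, a corepressor subunit, stood at 13.4, 12.2 and 14.1 TPM, then at 116, 80.7 and 76.7 TPM, then at 33.7, 29.9 and 28.8 TPM, with a day 14 log2 fold change of 1.16 ± 0.16 (limma adjusted p = 0.000358).

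Aire, the factor known for showing tissue antigens to T cells in the thymus, was listed at 0 in all 3 day 0 samples, at 6.71, 7.44 and 6.63 TPM at day 2, and at 1.85, 1.97 and 1.42 TPM at day 14. It was called higher at day 14 (limma adjusted p = 5.38e-05), and no fold is given against a group listed at 0. Rbpj, the DNA-binding partner of Notch, and Atxn7l2, a relative of a chromatin complex subunit, rose less, by 0.69 and 0.43 (limma adjusted p = 0.0143 and 0.0125). After median-of-ratios scaling both of these calls were lost, the Atxn7l2 call also after quantile normalization and without replicate 2 of day 0. Prdm8, a histone methyltransferase family member, and Nab2, a corepressor of EGR factors, were not called, with log2 differences of 0.44 ± 0.18 and 0.53 ± 0.22 (limma adjusted p = 0.0641 and 0.0703). Both came past the threshold when the 20 most abundant rows, or the microRNA and small nucleolar RNA rows, were taken out.

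Both long noncoding RNAs with a known role were higher at day 14. Neat1, the scaffold of nuclear paraspeckles, stood at 234, 152 and 142 TPM at day 0, at 909.9, 1050.4 and 1272 TPM at day 2, and at 309, 474 and 501 TPM at day 14. Zfas1, a host of small nucleolar RNAs, stood at 130.4, 139 and 130.3 TPM, then at 479, 606 and 411 TPM, then at 242, 233 and 299.6 TPM. The 3 days were separate for both, with day 14 log2 fold changes of 1.28 ± 0.24 and 0.94 ± 0.15 (limma adjusted p = 0.00181 and 0.000827).

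Other metabolism and redox chemistry held 11 members, 6 of them higher at day 14. Cyp2s1, a cytochrome P450, stood at 42.3, 33.6 and 30.7 TPM at day 0, at 506, 333 and 397 TPM at day 2, and at 269, 163 and 146 TPM at day 14. It was 2.37 ± 0.24 above day 0 on the log2 scale (limma adjusted p = 8.69e-05). Nampt, the rate-limiting enzyme of NAD salvage, stood at 27.6, 27.1 and 28.3 TPM, then at 80.2, 81.7 and 70.1 TPM, then at 52.0, 35.4 and 38.5 TPM. Nampt rose by 0.56 (limma adjusted p = 0.00858), a call lost after median-of-ratios scaling (0.0963). Aaed1, of a peroxiredoxin-like family, Parp16, an ADP-ribosyltransferase of the endoplasmic reticulum, Akr1b7, an aldo-keto reductase, and Hyi, a putative hydroxypyruvate isomerase annotated as a transcribed pseudogene, were also higher at day 14, by 1.52, 1.22, 1.01 and 0.89 (limma adjusted p = 2.78e-05, 0.000516, 0.00298 and 0.000799). The Akr1b7 call was lost after quantile normalization.

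The other 5 were not called at day 14. Mthfd1l, a mitochondrial enzyme of one-carbon metabolism, had means of 38.8, 84.2 and 39.7 TPM, and Acsbg1, a fatty acid activating enzyme, had means of 20.4, 51.5 and 22.7 TPM. Ptges, the prostaglandin E synthase, stood at 0.655, 0.838 and 0.813 TPM at day 0, at 5.88, 4.77 and 6.45 TPM at day 2, and at 0.820, 0.676 and 1.12 TPM at day 14, where the range overlapped day 0. Phospho1, a phosphatase of bone mineralisation, and Gstp3, a glutathione transferase with close copies, differed from day 0 by -0.22 ± 0.24 and 0.63 ± 0.28 (limma adjusted p = 0.444 and 0.0862). Gstp3 passed the threshold as higher without replicate 1 of day 0 or replicate 2 of day 14 (adjusted p = 0.0418 and 0.0283). Ptges and Phospho1 were called lower at day 14 after quantile normalization (adjusted p = 0.0308 and 0.0162).

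Of 9 signalling adaptors, traffic proteins and ubiquitin ligases, 5 were higher at day 14. Arrdc3, an arrestin-like protein that lowers glucose uptake and beta-adrenergic signalling, stood at 5.98, 5.93 and 6.88 TPM at day 0, at 32.7, 32.5 and 30.8 TPM at day 2, and at 21.2, 13.1 and 15.3 TPM at day 14, a log2 fold change of 1.25 ± 0.16 (limma adjusted p = 0.000289). Tbc1d16, a GTPase-activating protein for Rab proteins, had means of 1.33, 13.7 and 6.4 TPM and rose by 1.65 (limma adjusted p = 4.42e-05). The ubiquitin ligases Rnf217 and Rnf208 and the Arf regulator Acap1 rose by 0.73, 1.12 and 0.89 (limma adjusted p = 0.00114, 0.00605 and 0.0128). The Rnf208 and Acap1 calls were lost after quantile normalization. Sh2b2, an adaptor of receptor kinases, stood at 1.17, 0.949 and 0.801 TPM, then at 8.37, 6.26 and 4.11 TPM, then at 1.33, 0.771 and 1.5 TPM, and so overlapped day 0 at day 14. Ap5b1, a subunit of an endosomal coat, Tbkbp1, a partner of the kinase TBK1, and Paqr3, which holds Raf kinase at the Golgi, were not called, with differences of 0.29, 0.44 and 0.02 (limma adjusted p = 0.0914, 0.0842 and 0.939). Paqr3 was called lower after quantile normalization (-0.56, adjusted p = 0.0288). Tbkbp1 was called higher without microRNA and small nucleolar RNA rows, with a replicate block and without replicate 2 of day 14 (limma adjusted p = 0.0455, 0.0453 and 0.0407).

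The 5 cytoskeletal and synaptic genes held 1 call. Unc13a, which primes synaptic vesicles for release, stood at 1.01, 0.784 and 1.01 TPM at day 0, at 31.0, 18.3 and 24.7 TPM at day 2, and at 8.19, 6.36 and 10.4 TPM at day 14, a log2 fold change of 2.25 ± 0.21 (limma adjusted p = 6.1e-05). Add2, an adducin of the membrane skeleton, stood at 6.27, 5.44 and 4.71 TPM, then at 44.6, 29.1 and 31.7 TPM, then at 11.9, 5.51 and 7.94 TPM, and its day 14 range overlapped day 0. Add2, the septin Sept5, the centrosomal protein Cep170 and the unconventional myosin Myo1h differed from day 0 by 0.49, 0.48, 0.24 and 0.32 (limma adjusted p = 0.12, 0.0821, 0.296 and 0.109). Add2 and Sept5 came past the threshold as higher with a replicate block (limma adjusted p = 0.0346 and 0.0386). So did Add2 without replicate 2 of day 14 (0.0295) and Sept5 without replicate 1 of day 2 (0.0499).

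In the remaining 10 genes, which have no role assigned here, 5 were higher at day 14. Kbtbd11 and the trypsin-family gene Try5, whose close copies make its level uncertain, had day 14 means of 2.44 and 1.35 TPM against 0.346 and 0.0468 TPM at day 0. Gdap10, Rundc3b and Tmem200a were higher by 0.95, 0.55 and 0.42 (limma adjusted p = 0.00327, 0.0375 and 0.0233). Quantile normalization ended all 3 calls, and those of Rundc3b and Tmem200a were also lost after median-of-ratios scaling and without any 1 of the day 0 samples. AI413582, Ostf1, Mmd, Fam229b and Tmem95 were not called, with differences of -0.09, 0.01, 0.18, 0.22 and 0.89 (limma adjusted p = 0.701, 0.949, 0.306, 0.425 and 0.0911). Tmem95 was called higher without replicate 1 of day 0 or without replicate 1 of day 14 (limma adjusted p = 0.0441 and 0.0418). Ostf1 was nearly level, with means of 53.6 and 53.9 TPM at days 0 and 14 around a day 2 mean of 98.3 TPM, and after median-of-ratios scaling its small difference turned to a fall of -0.28 (adjusted p = 0.0382).

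Over the whole set, limma called 47 of the 80 genes higher at day 14 than at day 0, or 58.75% against the background of 36.2%, and 1 lower, against 18.8%. This background is not matched, since the rule asked members for a rise from day 0 to day 2. On lists described below, 32 of 38 HIF targets called higher at day 2 were also higher at day 14 than at day 0. For glycolysis genes and ATF4 and CHOP targets it was 20 of 24 and 25 of 26. The share over all genes called higher at day 2 was not counted. All 80 genes passed the filter on low values, which asked for at least 1 TPM in at least 3 samples, though 3 of them had under 3 samples of days 0 and 14 at that level. The median log2 fold change of the set was 0.79, against 0.22 over all genes. In 52 genes every day 14 value lay above every day 0 value, where the background was 43.2%. In 1 gene every value lay below, where it was 23.3%. The ranges overlapped in 27 genes, or 33.75%, near the 33.4% over all genes tested.

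The general level of day 14 moved with the scaling. The median over all genes was -0.05 after median-of-ratios scaling and -0.02 after quantile normalization, and the split over all genes turned from 4601 higher and 2389 lower to 3085 and 4027, and to 2853 and 3417. Of the set, 38 and 33 genes were then called higher, and 4 and 5 lower, with median log2 fold changes of 0.50 and 0.42. The calls therefore state a level relative to the rest of each sample's RNA. By role, hypoxia-linked genes had a median log2 fold change of 1.82, glycolytic genes 1.20, long noncoding RNAs 1.11 and surface genes 1.09. It was 0.73 for signalling genes, 0.63 for other metabolism, 0.50 for transcription genes and 0.48 for cytoskeletal and synaptic genes. Genes with no role assigned also had 0.48, and matrix and secreted genes 0.40. These medians describe groups of 2 to 11 genes and were not tested against each other.

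**Figure D4:**
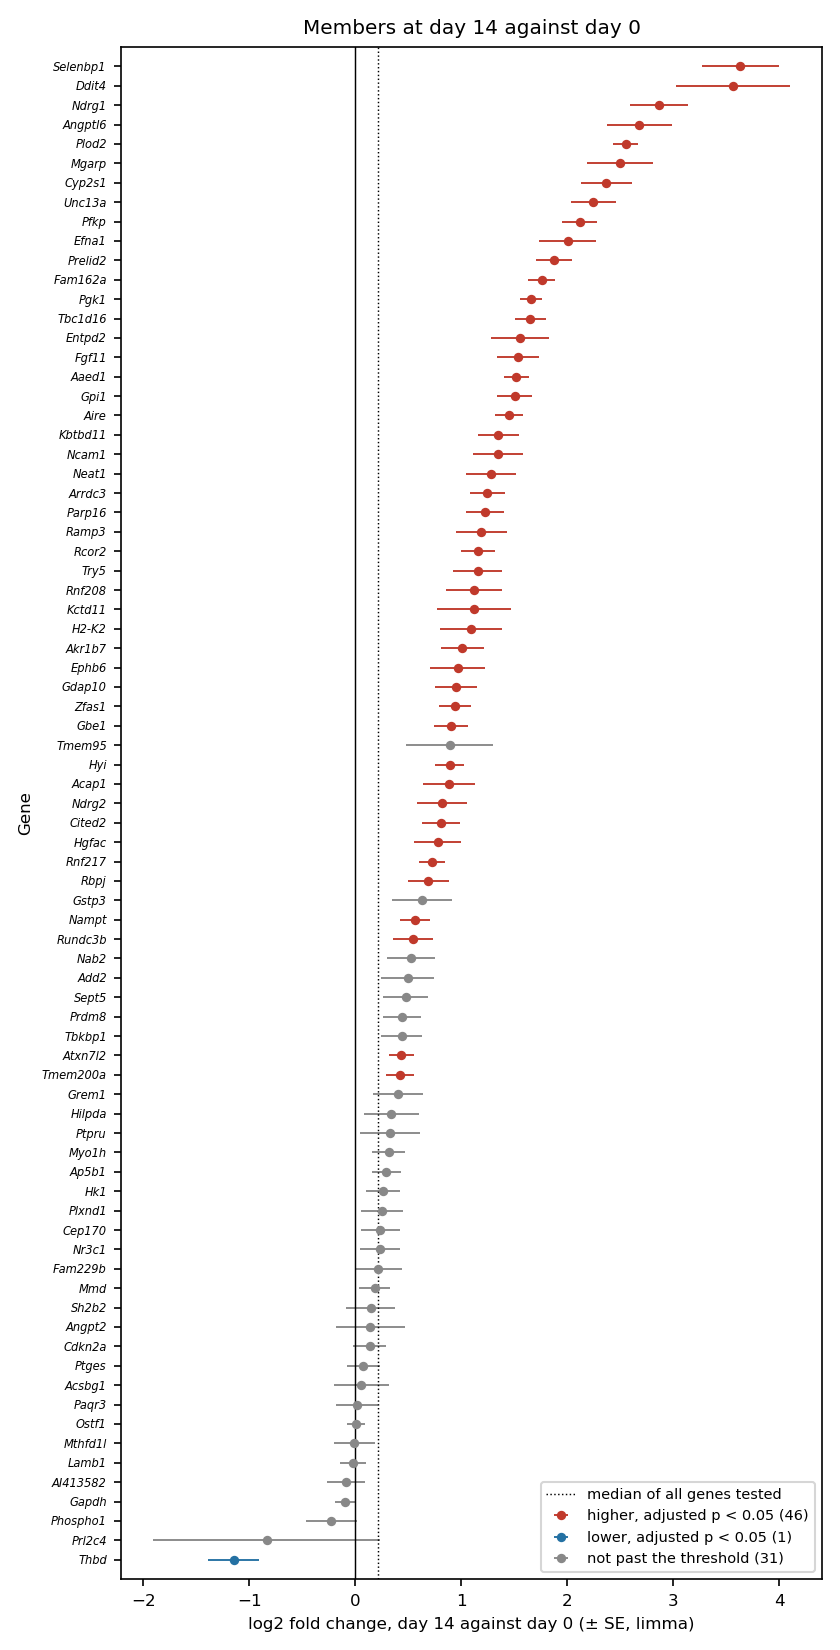
Log2 fold change of day 14 against day 0 (points, bars ± SE from limma) for 78 of the 80 genes, ordered by value, on log2(TPM + 1). The 46 drawn genes past the threshold as higher are red and Thbd, at -1.15, is blue, and the dotted line marks the median of all genes tested at 0.22.

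Lists written from textbook knowledge were used to describe which programmes hold these genes. They were written with earlier results of these data known, so counts of members on them are not independent of the data. In all, 15 of the 80 were on any of 28 pathway lists. How many of all genes tested were on any list was not counted, so 15 has no background here. The rule had also left out hypoxia or stress genes by name before this count. The HIF target list, with 41 of the 12693 genes tested, held 8 of the 80, including Cited2, Ddit4, Fam162a, Hilpda, Ndrg1, Pgk1 and Selenbp1. Over that list 38 genes had risen and 1 had fallen by day 2, against 27.1 and 31.9% of all genes. Day 14 stood above day 0 in 32 list genes and below day 2 in 24, where 3.79% of all genes stood below day 2 and 27.4% above. Among the 33 list genes outside the set it stood below day 2 in 17. These 17 include genes that the rule leaves out by name, among them Bnip3, Ero1l and Egln1, which met its other criteria. Car9, Car12 and Stc1 were higher at day 14 than at day 2, a count of 3 that became 1 without replicate 2 of day 14 or after median-of-ratios scaling and 0 after quantile normalization. The comparisons share samples, and the members among the counts were chosen for a fall after day 2. The shares of 3.79 and 27.4% hold for TPM as deposited, where the median log2 change of all genes from day 2 to day 14 was 0.247. That median was -0.009 after median-of-ratios scaling and -0.059 after quantile normalization, where the shares were not counted. Bnip3, a HIF target that drives removal of mitochondria and which the rule leaves out by name, had means of 5.32, 604 and 317 TPM.

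The glycolysis and glycogen list held 6 of the set (Gapdh, Gbe1, Gpi1, Hk1, Pfkp and Pgk1) among 27 tested genes. Of the list, 24 genes were higher at day 2 than at day 0, and 21 were higher at day 14 than at day 0. Day 14 stood below day 2 in 15, which include the 6 members chosen for that fall. Among the 21 list genes outside the set, it stood below day 2 in 9, against 3.79% of all genes on TPM as deposited. The rule leaves some of these 21 out by name. Slc16a3, the lactate exporter and not a member, had means of 12.7, 225 and 190 TPM. Aldoc, an aldolase that the rule leaves out by name, had means of 3.12, 96.7 and 37.2 TPM.

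The list of ATF4 and CHOP targets, part of the response to amino acid lack and endoplasmic reticulum stress, held 37 tested genes and 1 of the set, Ddit4. On this list 26 genes were higher at day 2 than at day 0 and 29 at day 14 than at day 0, against 27.1 and 36.2% of all genes. At day 14, 1 (Vegfa) was lower and 5 were higher than at day 2. Over all genes 3.79% were lower and 27.4% higher, so neither count exceeded the share over all genes on TPM as deposited. Trib3, a pseudokinase of this response, had means of 3.77, 117 and 91.1 TPM, and Vldlr, a lipoprotein receptor, 1.26, 74.0 and 57.0 TPM. The counts against day 2 depended on the settings, under which the shares over all genes were not counted. Over the alternatives the lower count ran from 0 to 6 and the higher count from 1 to 10, with 5 lower and 1 higher after median-of-ratios scaling, 6 lower and 1 higher after quantile normalization, 10 higher without replicate 2 of day 2, and 2 higher without replicate 1 or 3 of day 2.

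Several other lists held 1 of the set each. Cited2 was on the FOXO list of 18 tested genes, Ddit4 on that of mTORC1 brakes (20 genes), Cdkn2a on that of CDK inhibitors and pocket proteins (10 genes), Hilpda on that of lipid droplets and fatty acid oxidation (28 genes) and Neat1 on that of nuclear noncoding RNAs and small nucleolar RNA hosts (12 genes). Malat1, the nuclear RNA encoded beside Neat1 and not a member, had means of 70.1, 386 and 318 TPM.

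**Figure D5:**
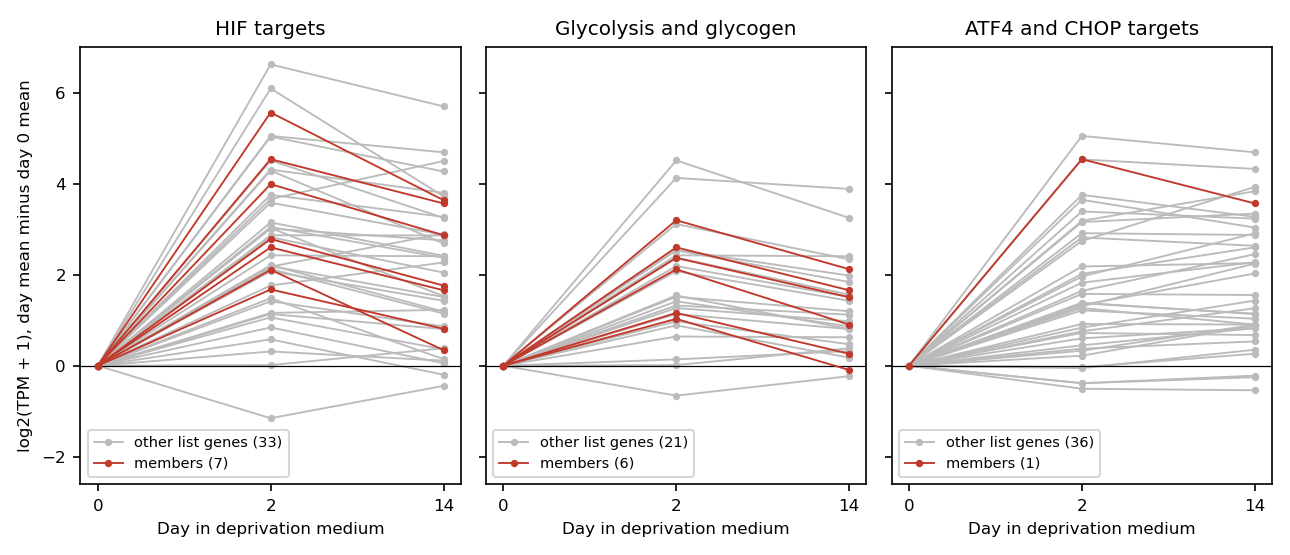
Day mean of log2(TPM + 1) minus its day 0 mean for tested genes of the HIF target, glycolysis and ATF4 and CHOP target lists, by day in deprivation medium. The day 2 peak genes are red, and other list genes, some of which the rule leaves out by name, are grey. The 7, 6 and 1 red lines bend down after day 2 by the rule, and grey lines on the HIF and glycolysis lists also bend down in part. On the ATF4 list 1 gene was lower and 5 were higher at day 14 than at day 2, against 3.79 and 27.4% of all genes. These list counts turn round after median-of-ratios scaling and quantile normalization, where the shares over all genes were not counted.

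Single samples of day 2 differed in which genes they raised most. Replicate 1 held the highest day 2 value in 38 of the 80 genes, replicate 2 in 26 and replicate 3 in 16, or 47.5, 32.5 and 20.0%. Over all genes tested these shares were 37.9, 50.2 and 12%. Replicate 1 was highest in 5 of the 6 glycolytic genes and in 6 of the 10 hypoxia-linked genes, whereas replicate 2 was highest in 6 of the 9 transcription genes. On the full lists, replicate 1 of day 2 was highest in 26 of 41 HIF targets and 21 of 27 glycolysis genes, and replicate 2 in 32 of 37 ATF4 and CHOP targets. In 23 of the 80 genes replicate 1 was highest at both day 2 and day 14, although the labels do not tie replicates of different days together. The matching share over all genes tested was not counted. Over those genes, replicate 1 of day 2 and replicate 1 of day 14 correlated at 0.318 once day means were removed. The day 2 values spread by a median SD of 0.27 on the log2 scale, against 0.21 over all genes tested, and the highest was at least 2 times the lowest in 9 genes, up to 2.68 times in Angpt2.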

How the data were processed

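Total RNA of 9 samples was sequenced (Qiagen extraction and Novogene libraries, per the labels' protocols). The authors quantified transcripts with Salmon and deposited gene TPM, per the labels, and all columns sum to the same total. Which Salmon version, genome build or annotation served is not given in the sources used here. TPM hold no read totals: the depth is unknown, and counting intervals cannot be had. Each of the 9 value columns was matched to a sample by its name.

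The rule was applied to the TPM table. Values were then taken as log2(TPM + 1), so folds of low genes are understated. The test, on rows that reach 1 TPM in 3 or more samples, was limma 3.58.1 in R 4.3.3, with all 9 samples in 1 fit, a mean per day, and eBayes with a trend. Two-sided p-values were adjusted (Benjamini-Hochberg) over 12693 genes, and calls need an adjusted p under 0.05. The fit was tested on simulated data. Errors after ± are SE. Motifs were counted in RefSeq windows, and figures drawn with Python 3.11.15 and matplotlib 3.10.9.

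The members, lists, rule and roles were chosen with earlier results of these data known. Genes were named if among the 12 members highest at day 2, the 12 with the largest smaller fold, the 6 highest or lowest called at day 14, on a pathway list, beside the 1.8-fold threshold, or in a role group. For lists with a member, the rule also named up to 2 non-members with the largest change at day 2, some of which are given. Results of 2 genes that the rule also named are not reported here. The remaining members, Vegfa, Car9, Car12, Stc1, Cd14, Cdh1, Epcam, Sox9 and Mir6236 were named after their values were seen. Alternatives were the 4 scalings, a pseudocount of 0.1 or 5, a filter on a mean of 5 TPM or none, a replicate block, no trend, robust variances, only the 2 groups compared, each sample left out, and other limits in the rule.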

Additional observations from a re-analysis of the deposited data

How the results depend on the processing

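Of 1658 recomputed day 14 values of single genes, 1580 kept their call. They stayed called in the same direction, or stayed uncalled whatever their sign. Another 46 lost the threshold, 28 gained it, and 4 reversed, which means a change of sign with a call before or after it. In every alternative, 49 of the 80 genes kept their call. The reversals were Ostf1 after median-of-ratios scaling (-0.28, adjusted p = 0.0382) and Paqr3 (-0.56, 0.0288), Ptges (-0.49, 0.0308) and Tmem200a (-0.23, 0.137) after quantile normalization. Members called lower numbered 0 with a mean of at least 5 TPM, where Thbd was not tested, 4 after median-of-ratios scaling, 5 after quantile normalization, and 1 to 2 with a sample left out. The higher value came without replicate 3 of day 14. Members called higher ran from 42 to 49 with a sample left out. Without replicate 2 of day 0, Atxn7l2, Hgfac, Kctd11, Rundc3b and Tmem200a lost their calls, and without replicate 3 of day 0, Kctd11, Ndrg2, Rundc3b and Tmem200a did. Over all genes, 4027 were lower after median-of-ratios scaling and 2853 higher after quantile normalization. The rule found 184, 233 and 122 genes under median-of-ratios scaling, quantile normalization and removal of the 20 most abundant rows, 183 at 1.5-fold, 53 at 2-fold, and 71 to 103 with a sample left out. The causes were not tested beyond these settings. With the replicate number as a replicate block, 51 members were higher and 1 lower. Samples of the same number correlated at -0.0709 to 0.318 once day means were removed, and 4 of 9 correlated best with their own number, so the numbers were taken as names only. Unknown depth limits what can be said of genes near 1 TPM.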

Other observations

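The rule turned round, with day 2 at least 1.8-fold below both other days, found 598 genes, or 4.71% of genes tested. They included 28 of the 28 genes on the cell division list. On the HIF, glycolysis and ATF4 and CHOP lists they included 0 genes each, a count that differs little from that background on lists of 41, 27 and 37 tested genes.

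On chromosome 11, 3 members lie next to each other in the mouse annotation used here, Kctd11 with Tmem95 on one side and Acap1 on the other. All 3 had their highest day 14 value in replicate 3, at 35.9 TPM for Kctd11, 5.98 TPM for Tmem95 and 2.73 TPM for Acap1. The genes do not overlap in that annotation, with gaps of 93 bases from Kctd11 to Tmem95 and 581 bases to Acap1. The sources used here do not say whether the quantification used strand, and sharing of reads between these neighbours was not tested.

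Of the rows the rule leaves out by name or prefix, 8 met its other criteria. Hmox1, the heme-degrading enzyme, had means of 27.1, 395 and 97 TPM at days 0, 2 and 14. Ero1l, an oxidase of protein folding, had means of 16.1, 337 and 111 TPM, and Egln1, the oxygen sensor that marks HIF for destruction, 53.1, 235 and 119 TPM.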
